A study of Drosophila melanogaster with 6 samples.

Results

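The genes described here are 10 genes grouped as glial genes of Drosophila. The regulators are gcm, gcm2, repo and pnt, and the signalling genes are loco and moody. The surface protein gene is wrapper, and the metabolic and transport genes are Gs2, Eaat1 and Indy. All 10 were taken from a list of symbols, and a probe set was used where the array annotation named exactly 1 gene for it. By that rule 8 of the 10 genes were measured, each by 1 probe set, among 18769 probe sets tested and 11982 genes named, and pnt and Eaat1 were not analysed here. RNA came from whole embryos of stages 11 to 16, which had been kept at 25 C and passed through a COPAS embryo sorter. The 3 control samples were embryos of the tub-Gal4 strain, and the 3 Sage samples were embryos with UAS-Sage under the same tub-Gal4 driver, which is active in most cells. Both groups therefore carried tub-Gal4, and the labels describe them as matched in age and treatment. Sage, of the basic helix-loop-helix family, is a transcription factor of the embryonic salivary gland. Nothing in the labels states that replicates were collected separately, and p-values here cover the spread between the 3 samples of each group, which may be technical only.

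Glia of the fly embryo support, insulate and nourish neurons. The transcription factor Gcm, with its paralogue Gcm2, switches precursors of the lateral glia to the glial fate, and it also acts in blood cell precursors. Gcm turns on repo, which encodes a homeodomain protein kept on in nearly all glia except those of the midline. Later genes serve the specialised classes: Moody and Loco act in the glia that seal the blood-brain barrier, Wrapper lies on midline glia that enclose commissural axons, and Gs2 and the glutamate transporters clear and recycle glutamate.

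The unit throughout was the log2 signal of a probe set, so 1 unit was a doubling, and the array medians lay between 5.56 and 5.74. The sage transcript itself went from 7.52 ± 0.14 (SD, n = 3) in the controls to 12.47 ± 0.07 (SD, n = 3) with the transgene. The control arrays differed among themselves: correlating all probe sets, whose values are not independent, gave a Pearson's r of 0.938 for control replicates 1 and 3, against 0.989 to 0.996 for pairs of Sage arrays. A list of late cuticle genes had a mean log2 signal between 6.83 and 9.09 on the control arrays, lowest on replicate 3, and between 9.66 and 9.88 with Sage. A list of maternal transcripts had a mean log2 signal between 8.38 and 9.09 in the controls and between 5.79 and 6.26 with Sage. Signal ratios of 3' over 5' probe sets were also higher with Sage, by 0.99 log2 units for Act5C, 0.43 for eIF4A and 0.51 for GAPDH. Developmental age and handling therefore cannot be told apart from the transgene for any gene below, and their part in the differences was not tested.

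Of the 8 measured glial genes, wrapper rose with Sage, Indy fell, and the other 6 did not pass the test. The test was limma, Sage minus control, with Benjamini-Hochberg adjustment over all 18769 probe sets and a threshold of 0.05 on the adjusted p. The same threshold called 4.25% of all probe sets higher and 9.45% lower, or 13.7% in either direction. A count of 1 gene of 8 in each direction is too small to set the glial genes apart from this background. The Sage arrays lay above all control arrays for 4 of the 8 genes (repo, loco, moody and wrapper) and below them for 1 (Indy), where 16.6% and 18.1% of all probe sets did so (34.7% in either direction). The median log2 difference of the 8 genes was 0.24 (0.12 without control replicate 1), against 0.00032 for all probe sets tested. An unadjusted p under 0.05 was reached by 5 of the 8, against 26.6% of all probe sets.

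**Figure D1:**
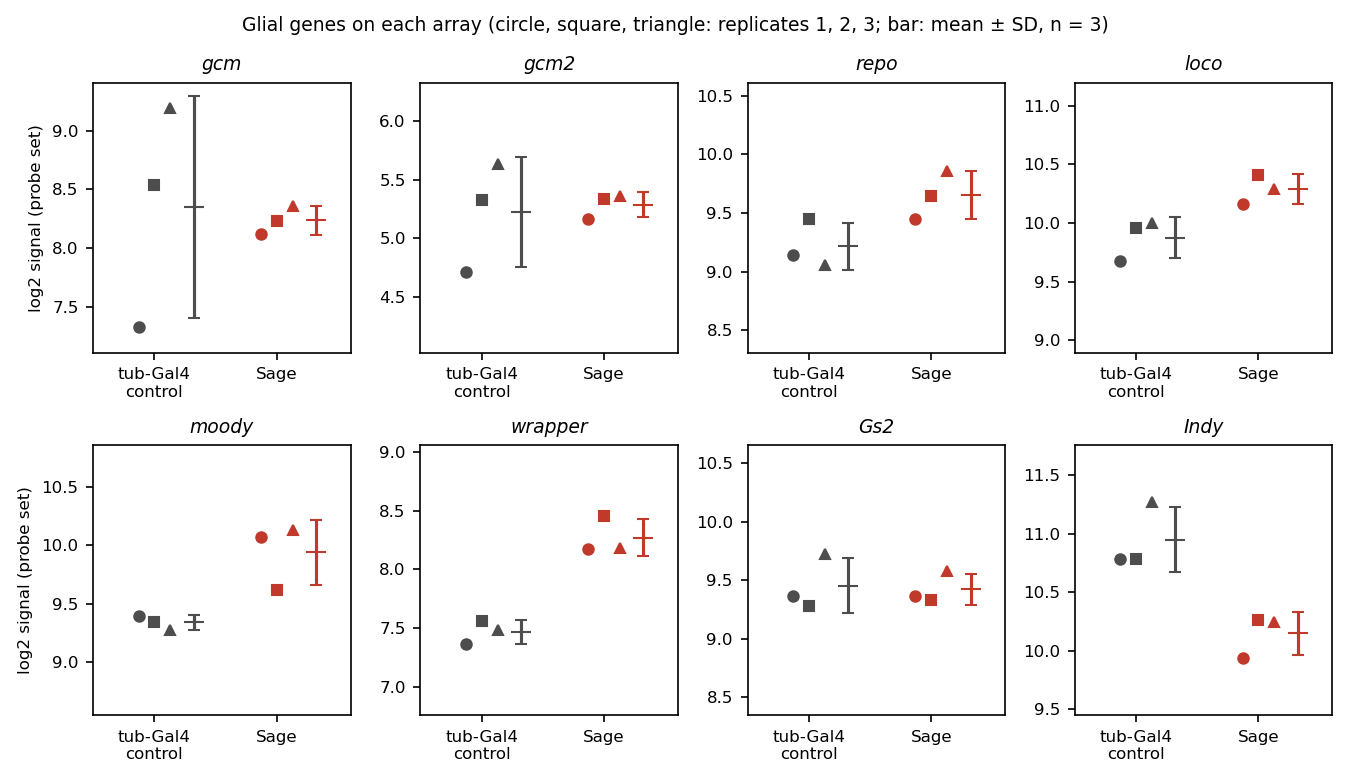
Log2 signal of each of the 8 measured glial genes on each array, by group (control grey, Sage red), with the group mean and SD (n = 3) beside the points; every panel spans the same height in log2 units. wrapper and Indy separate the groups by more than the spread within either, while the 3 control arrays of gcm spread from 7.32 to 9.19.

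The early determinants gcm and gcm2 did not pass, and both varied widely among the controls. For gcm (CG12245) the control arrays read 7.32, 8.53 and 9.19 and the Sage arrays 8.12, 8.23 and 8.36. All 3 Sage values lay inside the control range, which was 1.87 log2 units wide against 0.24 with Sage. The log2 difference was -0.11, with a 95% confidence interval from -1.24 to 1.01 (adjusted p = 0.917 by limma), so the interval includes a doubling in either direction. The control SD of gcm, 0.95, was larger than that of 95.3% of all probe sets.

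gcm2 (CG3858), which lies close to gcm in the RefSeq annotation with 3 annotated genes between them, read 4.71, 5.33 and 5.64 in the controls and 5.16, 5.33 and 5.36 with Sage. Its pattern over the controls was that of gcm on a smaller scale, with replicate 1 lowest and replicate 3 highest. Its signal was below the array's median on 5 of the 6 arrays and just above it on control replicate 3, a range in which differences on this scale are compressed. The log2 difference was 0.06, with an interval from -0.52 to 0.65 (adjusted p = 0.916 by limma). The sign of both genes depended on single control arrays: gcm had 0.31 without control replicate 3, and gcm2 had -0.20 without control replicate 1.

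The pan-glial gene repo (CG31240) was slightly higher on the Sage arrays but did not pass. Its control values were 9.14, 9.45 and 9.06, and its Sage values were 9.45, 9.65 and 9.86. The lowest Sage array exceeded the highest control array by less than 0.01, so the groups barely separated. The log2 difference was 0.44 (SE 0.15), or 1.35-fold, with an interval from 0.06 to 0.81 and an adjusted p of 0.13 by limma. In whole embryos, more glia and more repo RNA per glial cell cannot be told apart, and the same holds for every gene here.

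The barrier genes loco and moody were both higher on every Sage array than on any control array, and both stayed short of the threshold. loco (CG5248) encodes a regulator of G protein signalling made in glia. It read 9.68, 9.95 and 9.999 in the controls and 10.16, 10.41 and 10.29 with Sage. The log2 difference was 0.41 (SE 0.12), or 1.33-fold, with an interval from 0.12 to 0.71 (adjusted p = 0.0846 by limma).

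moody (CG4322) encodes the G protein-coupled receptor of the subperineurial glia that form the barrier. Its control values were tight, at 9.40, 9.34 and 9.28, with a range of 0.12. The Sage values were 10.07, 9.62 and 10.13, so replicate 2 lay well below the other two. The log2 difference was 0.60 (SE 0.15), or 1.51-fold, with an interval from 0.22 to 0.97 and an adjusted p of 0.0548 by limma. Without Sage replicate 2 it was 0.76 with an adjusted p of 0.0156 by limma. Quantile normalization (adjusted p = 0.04) and either filter on dim probe sets also put moody past the threshold. It stayed short when any other single array was left out (adjusted p from 0.0743 to 0.189). The same held with a replicate block (0.117), without moderation (0.135) and with a developmental score as a covariate (log2 difference 0.55, adjusted p = 0.512).

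Among the signalling partners of Moody and Loco none rose. Of 7 listed genes of this pathway 3 were measured: Galphai, an inhibitory G protein subunit, fell, and Galphao and pins did not pass. Galphai read 11.32, 11.41 and 11.69 in the controls and 10.51, 10.75 and 10.61 with Sage. Its log2 difference was -0.85 (SE 0.13), or 1.80-fold lower, with an adjusted p of 0.00918 by limma. It missed the threshold without Sage replicate 3 (adjusted p = 0.0528) and with a developmental score as a covariate, built from the cuticle and maternal lists (-0.38, adjusted p = 0.505). Galphao had a log2 difference of -0.65 and pins, which links Galphai to the spindle in dividing neuroblasts, -0.50. All 3 genes are used by many cell types besides glia.

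wrapper (CG10382), of the immunoglobulin superfamily, was the glial gene that changed most clearly. The control arrays read 7.36, 7.56 and 7.48, and the Sage arrays read 8.17, 8.46 and 8.18. The gap between the lowest Sage and the highest control array exceeded the whole range within either group. The mean went from 7.47 ± 0.10 to 8.27 ± 0.16 (SD, n = 3), a log2 difference of 0.80 (SE 0.11), or 1.75-fold, with an interval from 0.53 to 1.08 (adjusted p = 0.00732 by limma). That size is larger than the difference of 84.9% of all probe sets. Set against each control array alone, the Sage mean was higher by 0.91, 0.71 and 0.79 for replicates 1, 2 and 3. Leaving out any 1 array kept the adjusted p between 0.0112 and 0.0354. It was lost with the developmental score as a covariate (log2 difference 0.85, adjusted p = 0.172).

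No other gene of the midline glia passed with it. Of 7 listed genes 5 were measured, none passed, and none separated the groups. Their median log2 difference was 0.04, which ran from -0.03 to 0.14 with 1 array left out and was 0.44 with the developmental score. The Egf receptor antagonist gene aos had the largest difference, 0.34 (adjusted p = 0.218 by limma), followed by comm, which controls axon crossing, with 0.16. glec, a carbohydrate-binding surface protein gene of midline glia, had -0.12 and spi, the Egf receptor ligand gene, 0.05. The midline repellent gene sli read below the median of every array. sim, the master regulator of the midline, was not analysed here. Genes of the Egf receptor pathway, through which pnt is activated, gave none that passed among 7 measured of 10 listed. Their median log2 difference was -0.01, which ran from -0.15 to 0.14 with 1 array left out. With the developmental score that median was 1.02, and 1 gene of the list was called higher. Star (S), which helps to release the ligand, had the largest difference there, -1.003 (adjusted p = 0.126 by limma). It passed without control replicate 1 (-1.31, adjusted p = 0.0335), and its sign turned with the developmental score (1.02, adjusted p = 0.0598).

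Of the metabolic genes, Gs2 did not pass and Indy fell. Gs2 (CG1743), a glutamine synthetase that turns glutamate to glutamine, read 9.36, 9.28 and 9.72 in the controls and 9.37, 9.33 and 9.57 with Sage. The groups overlapped fully, with a log2 difference of -0.03 and an interval from -0.38 to 0.32 (adjusted p = 0.933 by limma). Its sign turned without control replicate 3 (0.10), without Sage replicate 2 (0.017), with quantile normalization (0.09) and with the developmental score (0.57, adjusted p = 0.325). With array weights it turned and passed (0.23, adjusted p = 0.0219).

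Indy (CG3979) encodes a citrate transporter of the cell membrane that is also made in fat body, midgut and oenocytes. It read 10.79, 10.79 and 11.27 in the controls and 9.94, 10.27 and 10.24 with Sage. Every Sage array was lower than every control array, and control replicate 3 was the highest of all. The mean went from 10.95 ± 0.28 to 10.15 ± 0.18 (SD, n = 3), a log2 difference of -0.80 (SE 0.17), or 1.74-fold lower, with an interval from -1.22 to -0.38 (adjusted p = 0.0319 by limma). The call was lost when control replicate 2 was left out (adjusted p = 0.0645) and when any Sage array was (0.104, 0.0832 and 0.101 for replicates 1, 2 and 3), though the estimate stayed between -0.64 and -0.88 with any 1 array left out. With the developmental score as a covariate the log2 difference was -0.14 (adjusted p = 0.88). The suffix of the Indy probe set marks probes that match several transcripts, which may belong to more than 1 gene. Probe sets of ATPCL, Gs1, spi, S, Galphao, Gat and Gad1, among others, carry the same suffix.

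Other genes of glutamate and citrate handling did not fall with Indy. Of 10 listed genes 7 were measured, and all 7 had positive differences, against 50.1% of all probe sets. Among the 7, 1 rose and 6 did not pass, where 4.25% of all probe sets were called higher. Their median log2 difference was 0.50. That median was 0.20 without control replicate 3 and -0.79 with the developmental score, under which 1 gene of the list was called lower. The gene that rose was ATPCL, which splits citrate in the cytosol to acetyl coenzyme A. It read 5.30, 5.21 and 5.11 in the controls and 5.91, 5.77 and 5.77 with Sage, a log2 difference of 0.61 (adjusted p = 0.00833 by limma), at signals near the array medians, and it did not pass with the developmental score (0.39, adjusted p = 0.394). Gs1, the mitochondrial glutamine synthetase, had 0.43 and Gdh, glutamate dehydrogenase, 0.50, and neither passed. All 7 of these genes were highest in control replicate 1 among the controls, as were 23.7% of all probe sets.

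**Figure D2:**
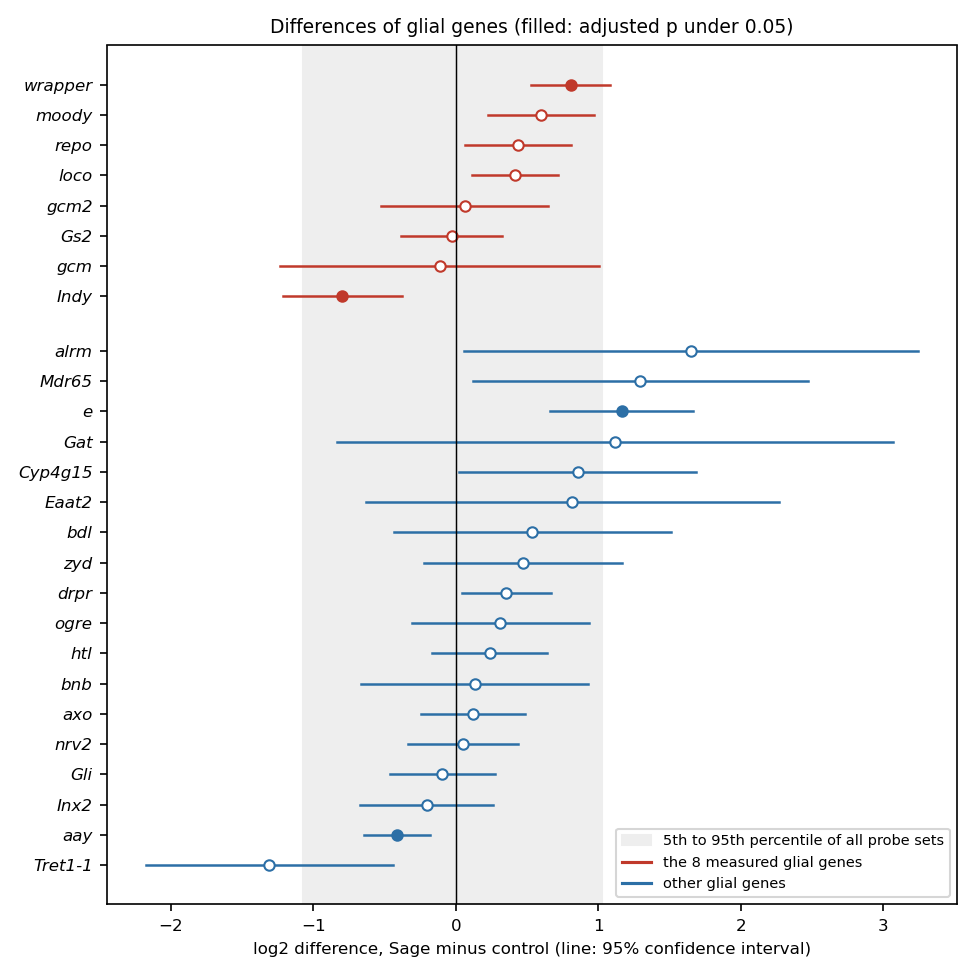
Log2 difference between Sage and control with its 95% confidence interval for the 8 measured glial genes (red) and 18 other glial genes (blue); filled points had an adjusted p under 0.05, and the grey band spans the 5th to 95th percentile of all probe sets, from -1.07 to 1.02. The points of the 8 genes lie within the band, and the intervals of alrm, Gat and Eaat2 are the widest among the other genes.

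The changes of the members were also set against that of repo, by subtracting the repo signal on the same array. The log2 difference of wrapper exceeded that of repo by 0.37, that of moody by 0.16, and that of loco differed by -0.02. In these 3 cases the groups overlapped. Relative to repo, Gs2 had -0.47, gcm -0.55 and gcm2 -0.38, again with overlapping groups. Indy had -1.23, and its Sage and control arrays did not overlap. These 7 comparisons were chosen after the data were seen, and no test of 3 arrays against 3 can give an exact two-sided permutation p below 0.1, so none could pass and they are given as values only.

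A wider list of 21 glial genes, with 18 measured, had 1 that rose and 1 that fell, and 16 that did not pass. Over all probe sets 4.25% were called higher and 9.45% lower, so counts this small do not set the list apart. Its median log2 difference was 0.33 (0.18 without control replicate 1, 0.21 without control replicate 3 and -0.05 with the developmental score), and 14 of the 18 differences were positive, against 50.1% of all probe sets. The gene that rose was e (ebony), an enzyme that joins beta-alanine to amines in glia and in tanning epidermis. It read 6.21, 6.12 and 5.90 in the controls and 6.80, 7.45 and 7.47 with Sage, a log2 difference of 1.16 (adjusted p = 0.0166 by limma), which was lost when control replicate 2 (0.0583), Sage replicate 2 (0.069) or Sage replicate 3 (0.0748) was left out and with the developmental score (0.55, adjusted p = 0.586). The gene that fell was aay, a phosphoserine phosphatase, with a log2 difference of -0.41 (adjusted p = 0.0394 by limma). aay passed only without control replicate 3 among the 6 fits with 1 array left out, and the other 5 gave adjusted p-values from 0.0643 to 0.131. With the developmental score its log2 difference was -0.54 (adjusted p = 0.297).

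For 16 of the 18 genes of that list the range of the controls exceeded the difference between the group means. alrm, a leucine-rich repeat gene of astrocyte-like glia, read 9.21, 8.34 and 6.55 in the controls and 9.56, 9.77 and 9.73 with Sage. The GABA transporter gene Gat read 8.17, 7.003 and 4.89 in the controls and 7.95, 7.58 and 7.89 with Sage. For both genes control replicate 3 stood lowest by more than 1.5 log2 units, and for Gat control replicate 1 exceeded every Sage array. Mdr65, a drug efflux pump of the barrier, read 6.56, 5.86 and 4.70 in the controls and 7.03, 6.64 and 7.34 with Sage. Tret1-1, a trehalose transporter of the perineurial glia, ran the other way, with 9.17, 9.43 and 10.49 in the controls and 8.44, 8.58 and 8.15 with Sage (log2 difference -1.31, adjusted p = 0.066 by limma).

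The spread among the controls was larger in the wider list than among the 8. In the wider list 9 of 18 genes had a control SD above 0.5, as did 13.3% of all probe sets, whereas gcm alone did so among the 8. The median control SD was 0.53 in the wider list, 0.22 among the 8 and 0.16 over all probe sets. In the wider list 10 of 18 genes were lowest in control replicate 3, against 2 of the 8 (repo and moody) and 26.7% of all probe sets. For 5 of the 8 the difference between group means exceeded the whole control range (repo, loco, moody, wrapper and Indy), which held for 2 of 18 in the wider list and 29.4% of all probe sets.

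**Figure D3:**
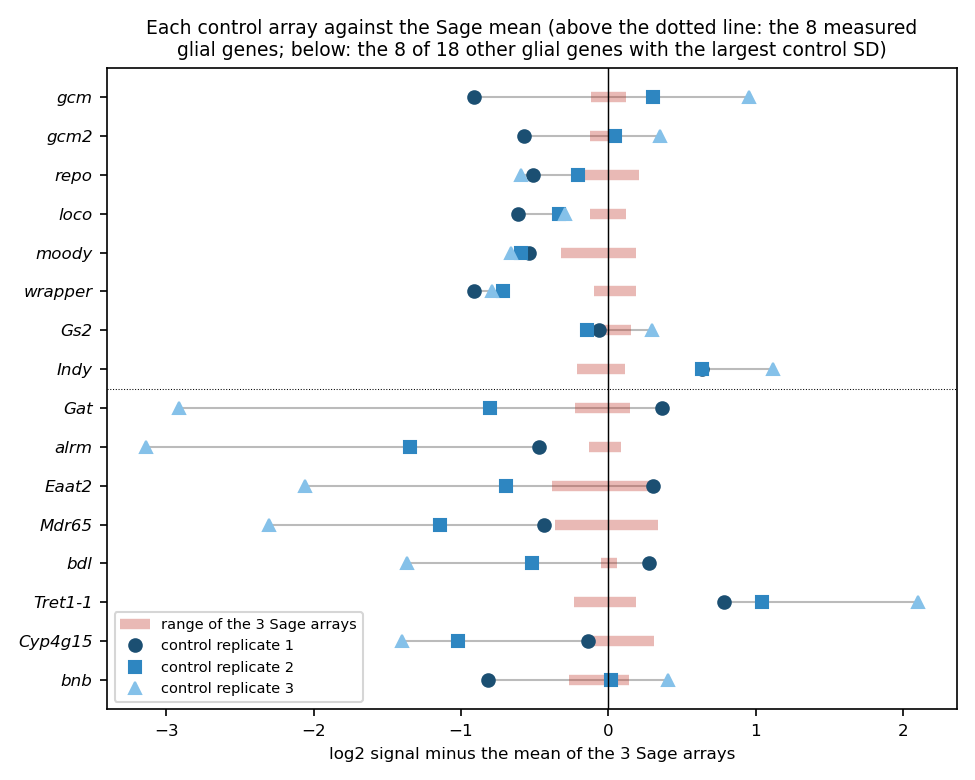
Log2 signal of each control array minus the mean of the 3 Sage arrays, for the 8 measured glial genes (above the dotted line) and the 8 of 18 other glial genes with the largest control SD (below it); red bars span the 3 Sage arrays. The 3 control arrays of wrapper sit between -0.91 and -0.71, while those of alrm run from -0.47 to -3.14.

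Neurons, the cells that glia surround, were read on the same arrays. Of 18 neuronal markers 17 were measured and none passed (1 had an unadjusted p under 0.05), with a median log2 difference of 0.42 and mean signals over the list between 6.62 and 7.83 in the controls and between 7.56 and 8.12 with Sage. The median was 0.08 without control replicate 3, and -0.55 with the developmental score, under which 4 markers were called lower. Gad1 and Syn, genes of transmitter synthesis and synaptic vesicles, had the largest differences, 1.75 and 1.598 (adjusted p = 0.299 and 0.313 by limma), and were lowest in control replicate 3. Without that array they had 0.66 and 0.56, and with the developmental score both were called lower (-3.61 and -3.38, adjusted p = 0.0363 and 0.0461 by limma). The groups do not overlap in that score, so both estimates with it are extrapolated. The neuronal gene elav, the 1 marker with an unadjusted p under 0.05, was lower. It went from 10.74 ± 0.35 (SD, n = 3) to 10.16 ± 0.07 (SD, n = 3) with Sage. Its log2 difference of -0.58 did not pass (adjusted p = 0.0984 by limma), with every Sage array below every control array. Sage arrays lay above all control arrays for 3 markers and below them for 1, against 16.6% and 18.1% of all probe sets. The neuronal markers VGlut and para read below the median of every array.

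Blood cell markers bear on gcm and gcm2, which act in that lineage too. All 15 listed markers were measured, and 4 rose, none fell and 11 did not pass. Of all probe sets 4.25% were called higher and 9.45% lower. The Sage arrays lay above all control arrays for 7 markers and below them for 2, against 16.6% and 18.1% of all probe sets. List means were between 7.84 and 8.27 in the controls and between 8.61 and 8.66 with Sage. The number that rose was 1 without any single Sage array, 2 without control replicate 2 or with a replicate block, 3 without control replicate 1 (with 1 called lower) and 6 without control replicate 3. With the developmental score 1 was called higher and 2 lower. The prophenoloxidase gene PPO1 had a log2 difference of 1.61 (adjusted p = 0.0273 by limma), which missed the threshold once control replicate 2 (0.0568) or any Sage array (0.0941 to 0.108) was left out. Pxn, which encodes peroxidasin, had 1.43 (adjusted p = 0.00286 by limma). Another Pxn probe set, below the array medians at 4.34 in the controls and 4.33 with Sage, had -0.0067 (adjusted p = 0.978 by limma). With the developmental score neither PPO1 nor the brighter Pxn probe set passed (-0.27 and 0.71, adjusted p = 0.663 and 0.162 by limma). The listed marker srp went the other way, from 9.35 in the controls to 8.90 with Sage. Its log2 difference was -0.45, with every Sage array below every control array, and it did not pass (adjusted p = 0.152 by limma). The markers Hml, He, lz and eater read below the median of every array. The part of neurons and blood cells in the glial values was not tested.

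Tissues that share Indy with glia gave 1 gene that rose and none that fell among 10 markers of fat body and oenocytes measured. It was the yolk protein gene Yp3 (log2 difference 1.18, adjusted p = 0.00149 by limma). Over all probe sets 4.25% were called higher and 9.45% lower. The list means were between 6.43 and 6.63 in the controls and between 6.79 and 6.89 with Sage. The median log2 difference of these markers was 0.18 (0.11 to 0.26 with 1 array left out). With the developmental score 1 marker was called higher and 1 lower. No midgut markers were listed, and the part of these tissues in the Indy values was not tested. Fbp1, Fbp2 and Yp1 read below the median of every array. Of 8 tracheal markers measured, a tissue in which pnt also acts, uif rose, with a log2 difference of 0.75 (adjusted p = 0.0385 by limma). uif passed without control replicate 2 or 3 and not without any 1 of the other 4 arrays (adjusted p from 0.0713 to 0.135 by limma). Nor did it pass with the developmental score (0.30, adjusted p = 0.752 by limma). Another uif probe set, below the array medians at 4.79 in either group, had -0.0025 (adjusted p = 0.989 by limma). Salivary gland markers, a list picked with results of these arrays known, rose in 7 of 9 cases, with Eig71Ee and sage itself leading at 5.12 and 4.96.

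**Figure D4:**
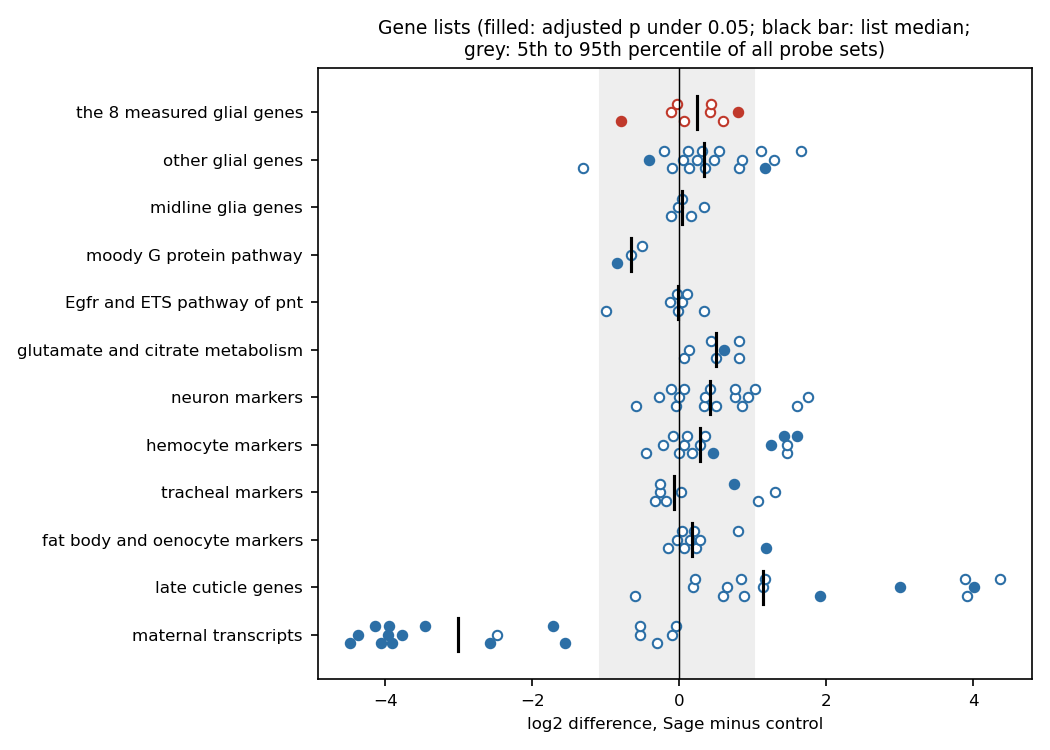
Log2 difference between Sage and control for every measured gene of the glial and marker lists except the salivary gland markers. Filled points had an adjusted p under 0.05, and a black bar marks each list's median. A grey band spans the 5th to the 95th percentile of all probe sets. The salivary gland markers, with a median of 1.78, are not shown. The 8 glial genes centre on 0.24, between the maternal transcripts at -3.02 and the late cuticle genes at 1.14.

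The late cuticle and maternal lists, both tied to embryo age, differed between the groups by far more than the glial genes. Of 15 cuticle genes measured 3 rose and none fell, led by TwdlN and Ccp84Ae with log2 differences of 4.02 and 3.01. TwdlN did not pass without control replicate 2 or any Sage array (adjusted p from 0.0618 to 0.0886), nor Ccp84Ae without Sage replicate 2 or 3 (0.0523 and 0.0579). The number that rose ran from 0 to 8 with 1 array left out, and the list's median from 0.69 to 1.47. Of 18 maternal transcripts measured 12 fell and none rose, led by swa and plu with -4.48 and -4.37. A developmental score was the mean of the first list minus that of the second, each gene first centred on its mean over the 6 arrays. It was -0.89, -1.78 and -3.78 on control replicates 1, 2 and 3 and 1.88, 2.43 and 2.13 on the Sage arrays. The groups did not overlap in this score, so a fit that holds it as a covariate had wider errors. The SE of wrapper was 0.30 in place of 0.11, and that of Indy 0.36 in place of 0.17. No array scored between -0.89 and 1.88, so every estimate with this covariate is extrapolated across that gap. None is a difference measured between embryos of equal age.

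**Figure D5:**
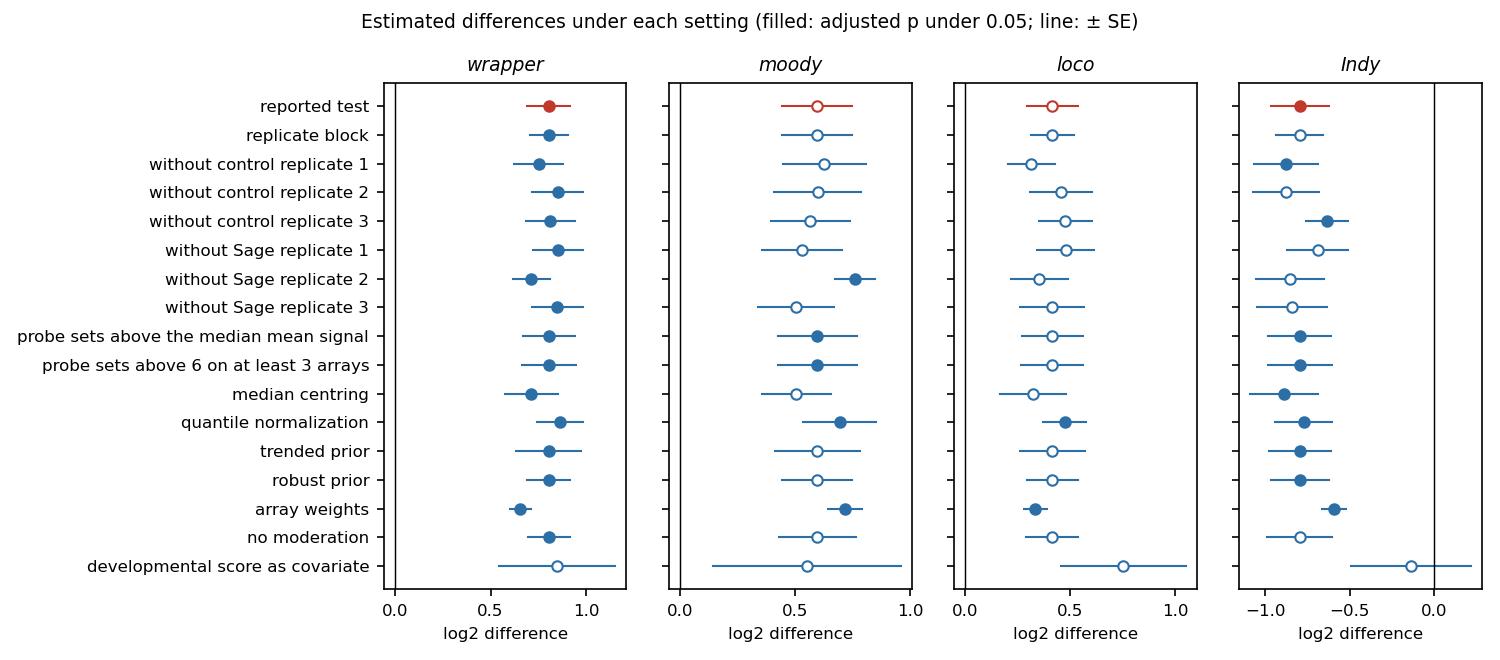
Estimated log2 difference with its SE for wrapper, moody, loco and Indy in the reported test (red) and under each alternative setting (blue); filled points had an adjusted p under 0.05. wrapper stayed between 0.65 and 0.86 and lost its call in 1 of 16 alternatives, and Indy ran from -0.89 to -0.14 and lost its call in 7 of 16.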

How the data were processed

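The authors deposited a log2 signal for each probe set of 6 Affymetrix 3' arrays. Per the submitters' processing notes, RMA and Partek were used, with no version given. RMA equalises array distributions, so a change in total RNA per embryo cannot be seen. After removal of 183 control features from 18952, the remaining 18769 were tested without a filter. Exactly 1 gene was named by the platform annotation for 13647 of them, more than 1 for 402 and no gene for 4720. For 13544, symbols were updated through Entrez identifiers to RefSeq Release 6, used for names and neighbours only. The probe set with the highest mean stood for a gene. limma 3.58.1 (lmFit, eBayes) in R 4.3.3 was fitted over the whole table, two-sided, without covariates, and tested on simulated data. Precision is limited by having 3 arrays in each group. Alternatives were a fit with replicate number as a block, leaving out each array, filters, normalization, priors, array weights, no moderation and a developmental score. The glial genes and lists were chosen with earlier results of these data known. All 8 measured glial genes were named. From each other list the largest changes past the threshold were named (up to 4 in each direction for glial lists, 2 for others), or the 2 largest differences where none passed. Other genes were named after their values were seen.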

Additional observations from a re-analysis of the deposited data

Results flagged for a closer look

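RNAs added to every array as hybridisation controls, which enter no gene comparison, were higher on all 3 Sage arrays than on any control array, by 1.42 log2 units for bioB, 0.98 for bioC, 1.11 for bioD and 0.30 for cre. The glial genes were measured on the same arrays, and the part of this difference in their values was not tested.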

How the results depend on the processing

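The reported test called 797 probe sets higher and 1774 lower, 1 glial gene higher and 1 lower. With 1 array left out these counts ran from 266 to 1276, from 934 to 2035, from 1 to 2 and from 0 to 1. Same-numbered control and Sage arrays did not deviate together (correlations -0.13, -0.07 and -0.25), and the labels do not say that a number marks a shared collection. A replicate block gave 341 higher and 1057 lower, with 1 glial gene higher and 0 lower. Without moderation there were 353 and 1026, again with 0 glial genes lower. With the developmental score there were 412 and 733, with 0 glial genes higher and 0 lower. Array weights gave 4869 and 4922, with 5 glial genes higher, and weighted control replicate 2 far above the other controls, so that fit rests mostly on 1 control array. Glial genes higher numbered 2 with either filter on dim probe sets (wrapper and moody) and 3 with quantile normalization (wrapper, moody and loco). The filter at the median mean signal called 741 of 9384 probe sets higher, and that at a signal of 6 called 761 of 8976. Quantile normalization called 914 of 18769 higher. Signs turned for gcm2 with median centring (-0.031) and quantile normalization (-0.033), and for gcm with the developmental score (2.325). Those of Gs2 turned with quantile normalization (0.0903), array weights (0.23) and the developmental score (0.57). Estimates with the developmental score are extrapolated, as the groups do not overlap in it. With 1 array left out gcm ran from -0.63 to 0.31, gcm2 from -0.20 to 0.27 and Gs2 from -0.12 to 0.10. repo, loco, moody, wrapper and Indy kept their direction in all 16 alternatives, but most of these could not have turned it. The replicate block, filters, priors and no moderation leave these estimates as they were. The groups do not overlap for these genes, so neither leaving out 1 array nor array weights could turn a sign. Only median centring, quantile normalization and the developmental score could have done so. Both filters removed gcm2. No other probe set named a measured glial gene, so that alternative gave no value. The causes were not tested. Signals near the array median, such as gcm2, limit what can be seen.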
